A study of Homo sapiens with 4 samples.

Results

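The RNA interference machinery of Panc1 cells was followed through 10 genes: the ribonucleases DROSHA and DICER1, the Dicer partner TARBP2, the Argonaute genes AGO1, AGO2, AGO3 and AGO4, and the scaffold genes TNRC6A, TNRC6B and TNRC6C. They were taken by gene symbol from the 54628 genes of the count tables, and each of the 10 symbols matched 1 row. Panc1 is a long-established line of human pancreatic ductal carcinoma cells. Poly(A) RNA was sequenced from 2 libraries labelled as treated with a small interfering RNA (siRNA) that targets HMGB2, which encodes a DNA-bending chromatin protein, and from 2 libraries labelled as treated with scramble siRNA, a control duplex without an intended target. Both groups are the same cell line and both are labelled as given an siRNA, so no comparison with untransfected cells is made. The labels give no dose, time after transfection or siRNA sequence, and say nothing of separate cultures. The p-values therefore rest on a spread among these libraries that may be technical only.

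The machinery has a nuclear and a cytoplasmic stage. Drosha, with its partner DGCR8, cuts primary microRNA transcripts to hairpins in the nucleus, the hairpins are exported, and Dicer, with TARBP2, cuts them to short duplexes. An Argonaute protein keeps 1 strand as a guide, and the TNRC6 (GW182) scaffold bound to it recruits enzymes that shorten the poly(A) tail and remove the cap of the paired messenger RNA. A transfected siRNA enters the same pathway at the Argonaute step, and AGO2 is the human Argonaute best known for cutting a fully paired target.

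The direction of every difference depends on labels that the targeted gene contradicts. The libraries labelled HMGB2 siRNA held 4021 and 2746 counts of HMGB2, against 346 and 319 counts in the libraries labelled scramble. It was therefore 8.43-fold higher where the label names the siRNA against it (log2 fold change 3.07 ± 0.08, SE; edgeR quasi-likelihood test, adjusted p = 1.54e-33), and the count columns of all 4 tables are headed with the other treatment. Groups are called below as their labels call them, with "HMGB2-high" for the libraries labelled HMGB2 siRNA and "HMGB2-low" for those labelled scramble. Total gene counts ranged from 20340695 to 31852391. Epithelial keratins were abundant, and 2 of the 4 epithelial markers were called higher in the HMGB2-high libraries: KRT8 and KRT19 had log2 fold changes of 0.29 (edgeR adjusted p = 0.00327) and 0.69 (adjusted p = 3.15e-11), while KRT18 and EPCAM were not called. The 4 markers summed to 4528 and 4581 CPM (read counts scaled to a common library total) in the HMGB2-high libraries, against 4181 and 3259.8 CPM in the HMGB2-low libraries. Mitochondrial genes took 4.43% and 4.69% of counts in the HMGB2-high libraries, against 5.25% and 5.36% in the HMGB2-low libraries. The part of either difference in the results below was not tested. CDKN2A was at 0 counts in every library, and the summed marker genes of blood, endothelial, acinar and endocrine cells stayed at or under 0.192 CPM.

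Across the pathway, 4 of the 10 genes were higher in the HMGB2-high libraries, 2 were lower and 4 did not pass the test. In bulk RNA, fewer cells with a transcript and less of it per cell cannot be told apart. The 4 that rose were TNRC6B, AGO3, AGO2 and DICER1, and the 2 that fell were TNRC6C and AGO1. Every change was small, with fitted log2 fold changes between -0.47 and 0.45. All 10 genes passed the filter on low counts, and a gene was called at a Benjamini-Hochberg adjusted p under 0.05 over all 15161 genes tested. Of all tested genes 16.7% were called higher and 14.1% lower (30.8% in either direction). In TMM-scaled CPM, both HMGB2-high libraries lay above both HMGB2-low ones for 6 of the 10 genes, against 32.0% of all tested genes. They lay below them for 2, against 31.6%, and 63.7% of all tested genes did not overlap in either direction. On the log2 scale the 10 genes had a median change of 0.13, and all tested genes one of -0.01. The split of all calls between directions depended on scaling, with 54.3% of calls higher by TMM but 42.0% by upper-quartile factors and 43.3% by total counts. The count of the 10 genes was 4 higher and 2 lower under each of these scalings.

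**Figure D1:**
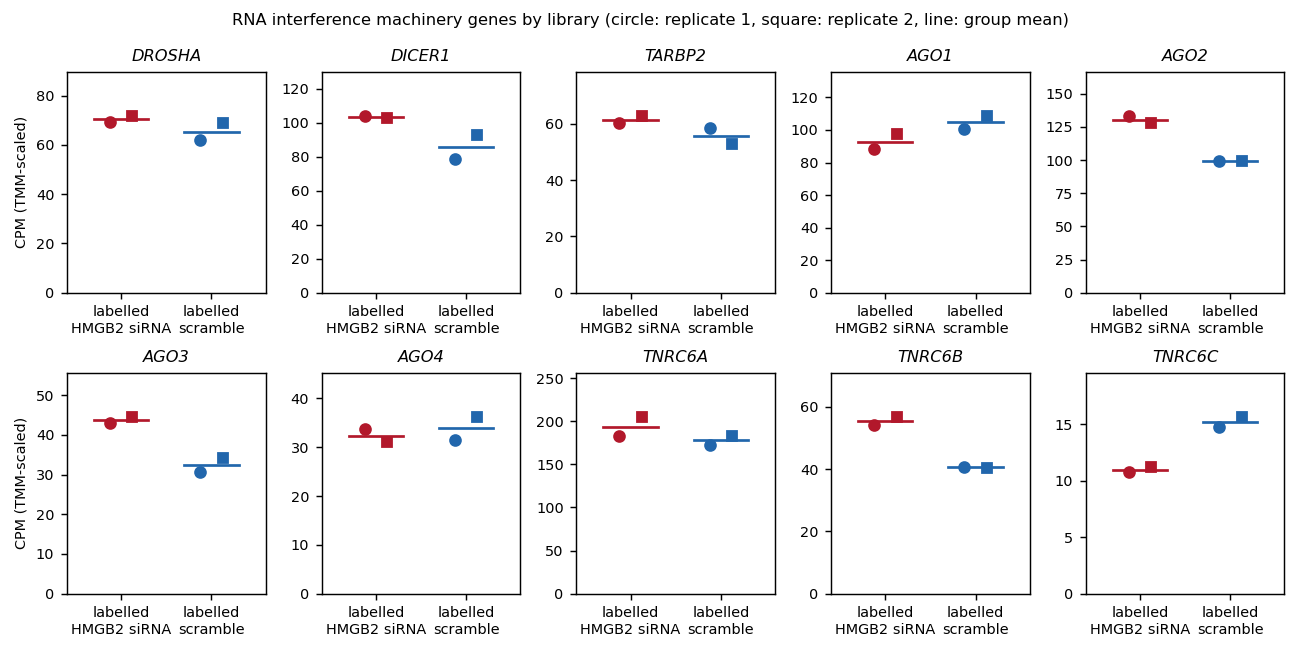
Level of each gene in CPM (vertical axis, from 0) in the 2 libraries labelled HMGB2 siRNA (red, left) and the 2 labelled scramble (blue, right), with a line at each group mean. AGO2, AGO3, DICER1 and TNRC6B sit higher in both red libraries, as do DROSHA and TARBP2, which were not called. AGO1 and TNRC6C sit lower in both, and AGO4 and TNRC6A overlap.

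The first nuclease of the pathway differed little. DROSHA (chromosome 5, 31400494 to 31532142, minus strand, GRCh38) had 69.3 and 71.7 CPM in the HMGB2-high libraries, against 62.0 and 68.7 CPM in the HMGB2-low libraries. Both HMGB2-high values in TMM-scaled CPM lay above both others, but the gap to HMGB2-low replicate 2 was smaller than the spread within that group. In counts per kb of exon scaled to the same sum in every library (TPM), without TMM factors, the groups overlapped. DROSHA then had 27.8 and 28.4 TPM in the HMGB2-high libraries, against 24.6 and 28.3 TPM in the HMGB2-low libraries. Its log2 fold change of 0.11 ± 0.07 (SE) was not called (edgeR adjusted p = 0.276). Leaving out 1 scramble library moved it either way: without scramble replicate 1 it was 0.04 (adjusted p = 0.703), and without scramble replicate 2 it was 0.19 and called (adjusted p = 0.0391). With upper-quartile scaling it was 0.06.

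DICER1, which encodes the cytoplasmic nuclease (chromosome 14, 95086228 to 95158010, minus strand), had 104 and 102 CPM in the HMGB2-high libraries, against 78.9 and 92.8 CPM in the HMGB2-low libraries. The groups did not overlap, and the 2 HMGB2-low libraries stood further apart than the HMGB2-high ones. It was 1.20-fold higher (log2 fold change 0.27 ± 0.07, SE; edgeR adjusted p = 0.00315). The call ended without HMGB2 siRNA replicate 1 (0.26, adjusted p = 0.0861) and without scramble replicate 1 (0.16, adjusted p = 0.0537). Without scramble replicate 2 the change was 0.39 (adjusted p = 2.28e-07), so its size depended on which scramble library was kept. DICER1 shares 139 exonic bases with DICER1-AS1 on the opposite strand, which had 7 to 19 counts per library.

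TARBP2, whose product binds double-stranded RNA and helps Dicer hand its product to Argonaute (chromosome 12, 53500923 to 53506431), had 60.3 and 62.8 CPM in the HMGB2-high libraries, against 58.6 and 53.0 CPM in the HMGB2-low libraries. All 4 values lay between 53.0 and 62.8 CPM, with the HMGB2-high ones on top. The log2 fold change of 0.14 ± 0.08 (SE) did not pass (edgeR adjusted p = 0.167). Leaving out scramble replicate 1 gave a call (0.22, adjusted p = 0.0158), and leaving out scramble replicate 2 gave 0.07 (adjusted p = 0.540). With upper-quartile scaling it was 0.09. TARBP2 shares 79 bases with MAP3K12 on the opposite strand.

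Among the Argonaute genes, 2 rose, 1 fell and 1 was not called. AGO2, the gene of the slicing Argonaute (chromosome 8, 140520156 to 140642406, minus strand), had 133 and 128 CPM in the HMGB2-high libraries, against 99.2 and 99.4 CPM in the HMGB2-low libraries. The groups did not overlap, with means of 130 ± 3.9 CPM in the HMGB2-high and 99.3 ± 0.11 CPM in the HMGB2-low libraries (SD, n = 2 each). An SD of 2 libraries is itself uncertain. Across genes the HMGB2-low libraries differed by more than sampling noise (chi-square per degree of freedom 5.68). The gene was 1.31-fold higher (log2 fold change 0.39 ± 0.07, SE; edgeR adjusted p = 5.19e-06). It was called under all 13 alternatives tried, at 0.34 to 0.43. AGO2 shares 149 bases with ERICD on the opposite strand, which had 30 to 68 counts per library.

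AGO3 (chromosome 1, 35925683 to 36072500, plus strand) encodes an Argonaute that shares most small RNAs with its relatives. It had 43.1 and 44.5 CPM in the HMGB2-high libraries, against 30.8 and 34.1 CPM in the HMGB2-low libraries. No HMGB2-low library reached the lower of the HMGB2-high values. The gene was 1.35-fold higher (log2 fold change 0.43 ± 0.08, SE; edgeR adjusted p = 5.98e-05) and was called under all 13 alternatives.

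AGO1 (chromosome 1, 35869761 to 35930532, plus strand), another Argonaute that works mainly through TNRC6 proteins, went the other way. It had 88.6 and 97.2 CPM in the HMGB2-high libraries, against 101 and 109 CPM in the HMGB2-low libraries. The groups did not overlap, but HMGB2 siRNA replicate 2 and scramble replicate 1 were closer to each other than either was to its own partner library. The log2 fold change of -0.17 ± 0.07 (SE) barely passed (edgeR adjusted p = 0.0499). The call was lost under 7 of 13 alternatives, among them DESeq2 (adjusted p = 0.118), the replicate block (adjusted p = 0.0672) and the omission of HMGB2 siRNA replicate 1 (-0.10, adjusted p = 0.608), replicate 2 (-0.23, adjusted p = 0.124) or scramble replicate 2 (-0.12, adjusted p = 0.175).

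The AGO1 and AGO3 values are not independent in annotation. The 2 genes overlap on the plus strand, and 4850 bases (chromosome 1, 35925683 to 35930532) are listed as exon of both, which is 34.7% of the exonic bases of AGO1 and 17.3% of those of AGO3. Reads there may be dropped, counted for both or split, which the sources used here do not give, and the part of this block in either change was not tested.

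AGO4 (chromosome 1, 35807630 to 35857890), a further Argonaute gene upstream of AGO1 on the same strand, had 33.7 and 31.0 CPM in the HMGB2-high libraries, against 31.6 and 36.2 CPM in the HMGB2-low libraries. The groups overlapped. Its log2 fold change was -0.06 ± 0.09 (SE; edgeR adjusted p = 0.664), an estimate with a sign that changed without scramble replicate 2 (0.04).

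The balance within the Argonaute family could be given free of scaling between libraries, as each gene's share of the family's counts per kb of counted exon. AGO2 made up 37.3% and 35.6% in the HMGB2-high libraries, against 30.4% and 28.4% in the HMGB2-low libraries. AGO1 made up 33.4% and 36.5% in the HMGB2-high libraries, against 41.5% and 41.7% in the HMGB2-low libraries. AGO1 was thus the most abundant Argonaute transcript per length in both HMGB2-low libraries, and AGO2 in 1 of the 2 HMGB2-high libraries. This ranking rests on the counted lengths, which include the block that AGO1 shares with AGO3. In raw counts AGO2 led in both HMGB2-high libraries (44.6% and 42.5%, against 29.7% and 32.4% for AGO1). AGO1 led in both HMGB2-low libraries on either scale. AGO3 made up 8.11% and 8.35% in the HMGB2-high libraries, against 6.33% and 6.55% in the HMGB2-low libraries. AGO4 made up 21.3% and 19.5% in the HMGB2-high libraries, against 21.8% and 23.3% in the HMGB2-low libraries. None of these shares overlapped between groups, and in CPM 63.7% of all tested genes did not overlap either. Shares of a family add up to the whole, so they do not move independently. The AGO2 share differed by 7.06 percentage points with no overlap, and with 2 against 2 libraries the two-sided exact permutation test gives p = 0.33, the smallest it can give. The counts of AGO3 for each count of AGO1 were 0.486 and 0.458 in the HMGB2-high libraries, against 0.305 and 0.314 in the HMGB2-low libraries. These ratios and shares restate the values above on another scale.

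**Figure D2:**
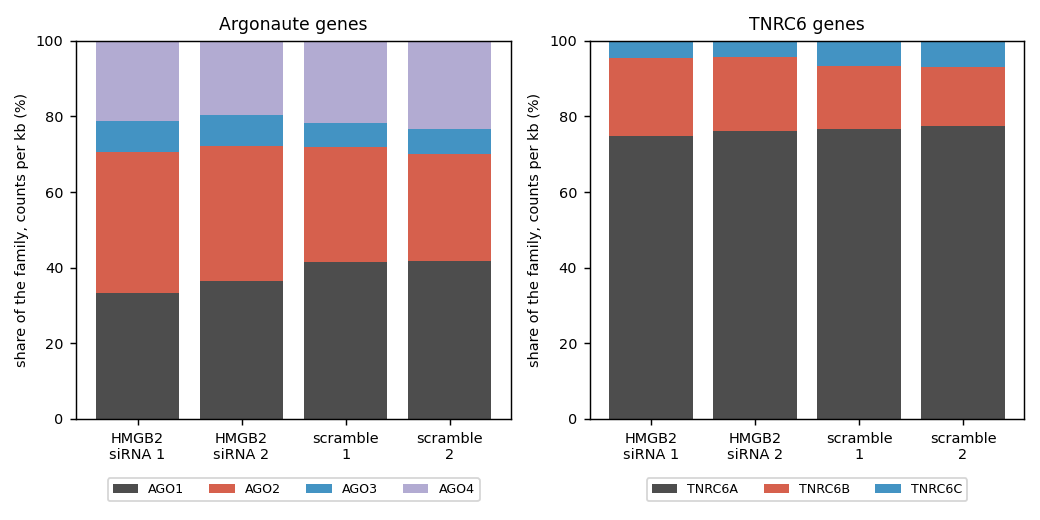
Share of each gene in its family's counts per kb of counted exon (vertical axis, percent) in each library, for the Argonaute genes (left) and the TNRC6 genes (right). AGO2 takes 35.6% or more of the Argonaute total in both libraries labelled HMGB2 siRNA and 30.4% or less in both labelled scramble, while TNRC6A takes 74.8% to 77.4% of its family in the 4 libraries.

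Of the 3 scaffold genes, 1 rose, 1 fell and 1 was not called. TNRC6B (chromosome 22, 40044834 to 40335808, plus strand) had 54.3 and 56.7 CPM in the HMGB2-high libraries, against 40.6 and 40.5 CPM in the HMGB2-low libraries. Both HMGB2-low libraries lay under both others, and their near equality rests on 2 libraries. TNRC6B was 1.37-fold higher, the largest called rise of the 10 genes (log2 fold change 0.45 ± 0.08, SE; edgeR adjusted p = 7.99e-06), and it was called under all 13 alternatives at 0.40 to 0.49.

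TNRC6C (chromosome 17, 77957557 to 78108835, plus strand) had 10.8 and 11.2 CPM in the HMGB2-high libraries, against 14.8 and 15.6 CPM in the HMGB2-low libraries. It was the gene of the 10 that fell furthest, with a log2 fold change of -0.47 ± 0.12 (SE; edgeR adjusted p = 0.00182). The call held under 12 of 13 alternatives and was lost without HMGB2 siRNA replicate 1 (-0.44, adjusted p = 0.0632). TNRC6C shares 1439 exonic bases, 8.61% of its own, with TMC6 on the opposite strand. TMC6 had 26.2 and 29.0 CPM in the HMGB2-high libraries, against 47.6 and 48.1 CPM in the HMGB2-low libraries (log2 fold change -0.80 ± 0.09, SE; edgeR adjusted p = 1.04e-10). The part of TMC6 reads in the TNRC6C change was not tested.

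TNRC6A (chromosome 16, 24610205 to 24826223, plus strand), the member with the most reads, had 183 and 205 CPM in the HMGB2-high libraries, against 173 and 183 CPM in the HMGB2-low libraries. The groups overlapped, since HMGB2 siRNA replicate 1 lay just under scramble replicate 2. Its log2 fold change of 0.12 ± 0.07 (SE) was not called (edgeR adjusted p = 0.181). It was 0.04 without HMGB2 siRNA replicate 2 (adjusted p = 0.853) and 0.20 without HMGB2 siRNA replicate 1 (adjusted p = 0.185), and it was called without scramble replicate 2 (0.16, adjusted p = 0.0324). With upper-quartile scaling it was 0.07. TNRC6A was the main transcript of its family in all 4 libraries. TNRC6B made up 20.6% and 19.5% of counts per kb in the HMGB2-high libraries, against 16.6% and 15.8% in the HMGB2-low libraries. TNRC6C made up 4.57% and 4.31% in the HMGB2-high libraries, against 6.78% and 6.83% in the HMGB2-low libraries. No share of the family, that of TNRC6A included, overlapped between groups, and in CPM 63.7% of all tested genes did not overlap either. TNRC6A held 74.8% and 76.2% in the HMGB2-high libraries, against 76.6% and 77.4% in the HMGB2-low libraries. Of the 17286 bases counted as its length, 8250 lie on an alternative sequence of the assembly. With the 9036 bases of chromosome 16 alone, its share was 85.0% and 85.9% in the HMGB2-high libraries, against 86.2% and 86.7% in the HMGB2-low libraries.

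The start regions of TNRC6B, AGO3 and TNRC6C are shown because these genes had the largest called changes among members whose sequence is given here. Each is a RefSeq window of 300 bases on the plus strand of GRCh38.p14, from 250 bases before the start site to 50 after it, in lower case, with each CCAAT box (CCAAT, or ATTGG for the other strand) in capitals. CCAAT is the box bound by the factor NF-Y. TNRC6B and AGO3 have 1 window each, and TNRC6C has 4, of which the outermost 2 are shown.
TNRC6B, chr22:40044584-40044883: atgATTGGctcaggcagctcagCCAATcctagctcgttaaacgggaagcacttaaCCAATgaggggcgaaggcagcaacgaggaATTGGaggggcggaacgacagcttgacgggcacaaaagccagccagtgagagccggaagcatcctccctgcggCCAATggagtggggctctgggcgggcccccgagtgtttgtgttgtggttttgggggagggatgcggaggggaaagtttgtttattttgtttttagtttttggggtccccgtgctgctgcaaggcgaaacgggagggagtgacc
AGO3, chr1:35930855-35931154: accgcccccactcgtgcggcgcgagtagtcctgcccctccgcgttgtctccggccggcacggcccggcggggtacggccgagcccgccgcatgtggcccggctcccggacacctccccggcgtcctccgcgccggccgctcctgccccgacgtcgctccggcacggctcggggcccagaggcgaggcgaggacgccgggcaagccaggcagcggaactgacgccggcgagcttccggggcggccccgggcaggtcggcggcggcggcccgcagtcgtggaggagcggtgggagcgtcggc
TNRC6C, chr17:77957307-77957606: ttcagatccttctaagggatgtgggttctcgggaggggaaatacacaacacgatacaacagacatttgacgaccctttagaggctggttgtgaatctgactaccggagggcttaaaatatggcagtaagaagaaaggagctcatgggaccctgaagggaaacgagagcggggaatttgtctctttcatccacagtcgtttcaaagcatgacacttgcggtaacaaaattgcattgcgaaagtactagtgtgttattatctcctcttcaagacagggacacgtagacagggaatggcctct
TNRC6C, chr17:77958453-77958752: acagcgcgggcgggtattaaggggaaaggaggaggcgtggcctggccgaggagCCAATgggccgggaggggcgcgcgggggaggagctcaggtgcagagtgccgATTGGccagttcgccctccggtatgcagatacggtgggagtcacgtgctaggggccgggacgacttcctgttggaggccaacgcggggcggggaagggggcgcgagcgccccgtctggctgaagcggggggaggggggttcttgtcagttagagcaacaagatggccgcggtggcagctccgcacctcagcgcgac
The TNRC6B window held 5 CCAAT boxes, the nearest 93 bases before the start site. Among all 35116 windows, 126 held 5 or more. The AGO3 window held 0 CCAAT boxes. Of the 4 TNRC6C windows, the outermost and 2 others held 0. The one next to the outermost, with its start site 1146 bases further in, held 2 CCAAT boxes. That window, the TNRC6B window and the AGO3 window each held 2 GC boxes (GGGCGG), and 1 further TNRC6C window held 1. The AGO3 start site lies 5422 bases inside the outer end of the gene in the count tables, downstream of the block shared with AGO1. Of the members, 9 had a window in the table, 18 windows in all, and 9 of the 18 held CCAAT on either strand, against 34.6% of all windows. The GC box GGGCGG was found on either strand in 12 of the 18 (66.7%), against 45.0% of all windows, and the TATA box TATAAA in 0, against 11.5%. The 18 are not separate units, since genes differ in their number of windows and the DICER1 windows starting at 95157853 and 95157961 overlap. By gene, where no background share was computed, 7 of the 9 members held CCAAT and 8 held GGGCGG in at least 1 window. These are letter matches, and binding was not measured.

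**Figure D3:**
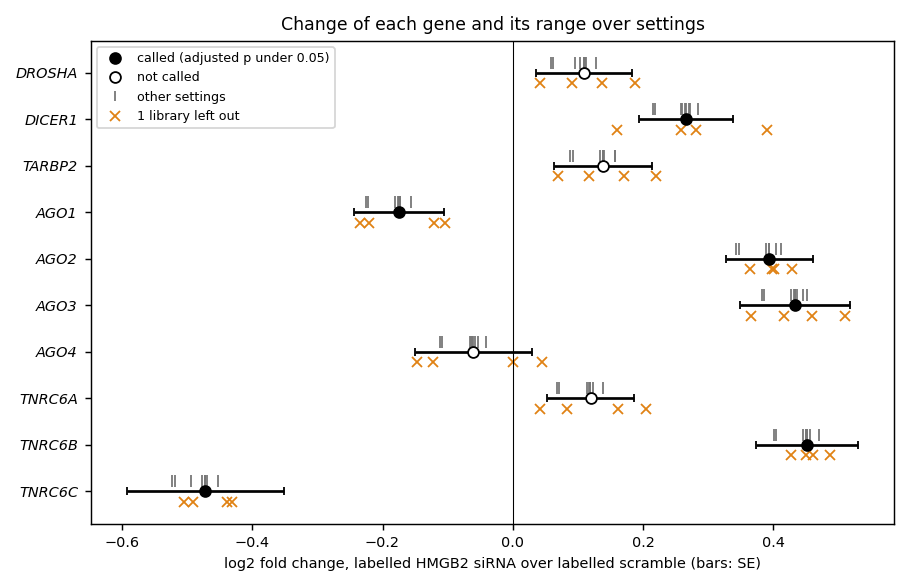
Log2 fold change of each gene, libraries labelled HMGB2 siRNA over those labelled scramble (horizontal axis), with its SE as a bar, filled where called. Grey ticks are other scalings, filters and tests and orange crosses leave out 1 library, and AGO2, AGO3 and TNRC6B lie between 0.34 and 0.51 at every mark.

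Levels between genes were compared per length, as TPM (counts per kb of counted exon, scaled to the same sum in every library). TARBP2 was highest, with 79.6 and 81.6 TPM in the HMGB2-high libraries and 76.6 and 71.8 TPM in the HMGB2-low libraries. DROSHA and TNRC6A followed with means over the 4 libraries of 27.3 and 26.7 TPM, and their ranges overlapped (24.6 to 28.4 and 24.6 to 29.0 TPM). AGO1 (mean 17.5 TPM) and AGO2 (15.1 TPM) also overlapped, as did DICER1 (11.5 TPM) and AGO4 (9.86 TPM). TNRC6B (6.38 TPM), AGO3 (3.38 TPM) and TNRC6C (1.95 TPM) came last, and their ranges did not overlap. These levels depend on the annotated length, which ran from 1881 bases for TARBP2 to 27993 for AGO3, and the overlap of TNRC6A with DROSHA rests on the counted length. With its bases on chromosome 16 alone, TNRC6A had 50.1 and 55.5 TPM in the HMGB2-high libraries and 47.1 and 51.7 TPM in the HMGB2-low libraries (mean 51.1 TPM), above DROSHA in all 4.

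The genes that work with the machinery were taken as 7 lists of 68 genes, of which 64 were tested. In all, 18 were called higher in the HMGB2-high libraries (28.1%, against 16.7% of all tested genes), 4 were called lower (6.25%, against 14.1%) and 42 were not called. In either direction 34.4% were called, near the 30.8% of all tested genes. The median log2 fold change of the 64 was 0.08. By list, the share called in either direction ran from 0 of the 2 tested PIWI genes and 18.2% in decapping and decay to 53.8% in deadenylation, and each list's counts stand against the same 16.7% higher and 14.1% lower of all tested genes. With upper-quartile scaling the counts were 14 higher and 8 lower, where 2035 and 2809 of all 15161 tested genes were called. With total-count scaling they were again 14 and 8, where 2015 and 2641 of all tested genes were called. Leaving out either HMGB2 siRNA library left fewer calls in both directions, among the partner genes and among all tested genes.

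Of 10 genes of the Microprocessor and hairpin export, 5 rose and 0 fell, with a median log2 fold change of 0.13. DDX5, an RNA helicase that assists Drosha, had 341 and 355 CPM in the HMGB2-high libraries, against 295 and 277 CPM in the HMGB2-low libraries (log2 fold change 0.28 ± 0.06, SE; edgeR adjusted p = 0.000492). The splicing factor SRSF3, which marks hairpins for Drosha, and ERH, a small Microprocessor partner, had log2 fold changes of 0.24 and 0.23. DDX5 lost its call without HMGB2 siRNA replicate 2, SRSF3 without replicate 1 and ERH without either (adjusted p from 0.0504 to 0.214). Drosha's obligate partner DGCR8 was not called (log2 fold change 0.08 ± 0.08, SE), nor was the exporter XPO5 (0.06 ± 0.06). DDX5 shares 107 bases with CEP95 on the opposite strand.

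Of 10 Dicer partners and loading factors, 1 rose and 2 fell, with a median log2 fold change of 0.02. TSNAX, a subunit of the nuclease C3PO, which clears the discarded strand, had 26.0 and 24.5 CPM in the HMGB2-high libraries, against 30.8 and 38.9 CPM in the HMGB2-low libraries. Its log2 fold change was -0.46 ± 0.10 (SE; edgeR adjusted p = 0.000161), and 24.2% of its exonic bases also belong to TSNAX-DISC1 on the same strand. It was called under all 13 alternatives, but at -0.28 without scramble replicate 2 and -0.61 without scramble replicate 1. TSN, the other subunit of C3PO, went the other way and was not called. It had 126 and 123 CPM in the HMGB2-high libraries, against 110 and 114 CPM in the HMGB2-low libraries (log2 fold change 0.16 ± 0.07, SE; edgeR adjusted p = 0.0689). PRKRA, the second double-stranded RNA partner of Dicer, was at -0.19 on the log2 scale (adjusted p = 0.0412), a call lost under 7 of 13 alternatives. PTGES3, the HSP90 co-chaperone p23, was at 0.20 (adjusted p = 0.0144), a call lost under 4 of 13.

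The largest change in the wider pathway was in precursor control. LIN28B, which blocks maturation of let-7 hairpins, had 30.7 and 35.2 CPM in the HMGB2-high libraries, against 9.13 and 9.55 CPM in the HMGB2-low libraries. It was 3.51-fold higher (edgeR adjusted p = 8.01e-19). TUT7, a uridylyl transferase that tails such hairpins, was at a log2 fold change of 0.26 (adjusted p = 0.0372), and its call was lost under 5 of 13 alternatives. Its relative TUT4 went the other way and was not called (log2 fold change -0.12 ± 0.07, SE). It had 79.6 and 80.8 CPM in the HMGB2-high libraries, against 86.0 and 87.8 CPM in the HMGB2-low libraries. Of the 8 genes of this list, 6 were tested, 2 rose and 0 fell, with a median of 0.20. LIN28A and TRIM71 had too few counts to test.

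Of 13 genes of deadenylation, the first step after TNRC6 recruitment, 6 rose, 1 fell and 6 were not called; the median log2 fold change was 0.10. The deadenylase CNOT6L had 21.8 and 22.2 CPM in the HMGB2-high libraries, against 12.0 and 16.5 CPM in the HMGB2-low libraries (log2 fold change 0.63 ± 0.12, SE; edgeR adjusted p = 2.24e-05). The deadenylase CNOT8 and CNOT9, the CCR4-NOT subunit that binds TNRC6 tryptophans, were 1.38-fold and 1.32-fold higher (adjusted p = 3.73e-06 and 3.62e-06). All 3 were called under all 13 alternatives. The relatives CNOT6 and CNOT7 went the other way and were not called (log2 fold changes -0.16 ± 0.07 and -0.12 ± 0.09, SE). CNOT7 shares 75.9% of its exonic bases with ZDHHC2 on the opposite strand. PABPC1, the poly(A)-binding protein, was the 1 that fell, at -0.23.

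In decapping, the enzyme and its activator both rose. DCP2, the decapping enzyme, had 107 and 103 CPM in the HMGB2-high libraries, against 42.6 and 48.7 CPM in the HMGB2-low libraries. It was 2.31-fold higher (log2 fold change 1.21 ± 0.07, SE; edgeR adjusted p = 1.06e-18). Its activator DCP1A had 39.3 and 41.6 CPM in the HMGB2-high libraries, against 14.4 and 17.6 CPM in the HMGB2-low libraries, and was 2.53-fold higher (adjusted p = 7.35e-16). They were the 2 of 11 decapping and decay genes that were called, and the median over the 11 was 0.07. None of the others was called: the paralog DCP1B was at 0.21 ± 0.21 (log2 fold change, SE), the scaffold EDC4 0.16 ± 0.07, the helicase DDX6 -0.02 ± 0.07 and the exonuclease XRN1 0.16 ± 0.08. DCP2 shares 90 bases with MCC on the opposite strand.

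Of 12 genes that bind or regulate Argonaute, 2 rose and 1 fell, with a median log2 fold change of -0.02. FXR1, an RNA-binding protein that associates with AGO2, had 264 and 268 CPM in the HMGB2-high libraries, against 203 and 213 CPM in the HMGB2-low libraries (log2 fold change 0.35 ± 0.06, SE; edgeR adjusted p = 1.86e-05). The LIM domain genes AJUBA and WTIP, whose family links Argonaute to TNRC6 and the cap, differed in sign, at 0.28 (adjusted p = 0.00262) and -0.46 (adjusted p = 1.12e-06), and AJUBA lost its call without HMGB2 siRNA replicate 2 (adjusted p = 0.122). Their relative LIMD1 was not called (-0.03 ± 0.08, SE). The germline relatives of Argonaute were scarce: 2 of the 4 PIWI genes could be tested, and edgeR called 0, with 0 at an unadjusted p under 0.05. PIWIL1 had 0 counts in every library, which allows up to 0.0942 to 0.147 CPM by counting error alone, and PIWIL4, the highest of the 4, had 1.97 and 1.61 CPM in the HMGB2-high libraries and 2.45 and 1.58 CPM in the HMGB2-low libraries.

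**Figure D4:**
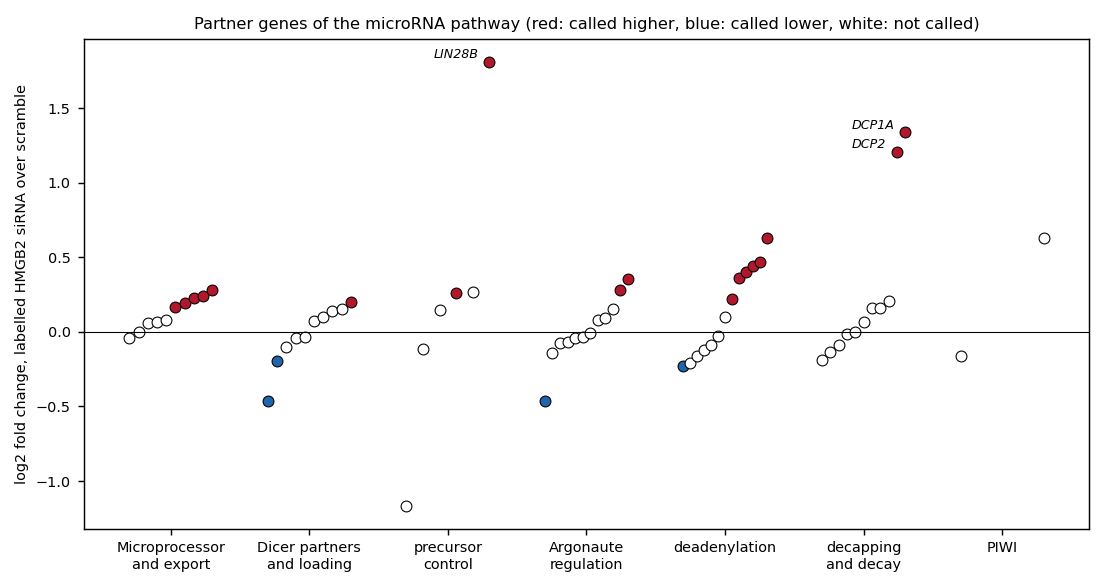
Log2 fold change of the 64 tested partner genes (vertical axis, libraries labelled HMGB2 siRNA over those labelled scramble) in 7 lists, filled red where called higher and blue where called lower. LIN28B, DCP1A and DCP2 stand above 1, and all other called genes lie between -0.46 and 0.63.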

How the data were processed

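Poly(A) RNA of 4 Panc1 libraries was analysed. Per the submitters' processing notes, STAR, SAMtools 1.9, featureCounts of Subread 1.6.3 and DESeq2 were used with hg38 (GRCh38); strand setting and the treatment of multimapping and overlapping reads are not given in the sources used here. The deposited values are raw read counts per gene over listed exons, with the summed exon length, per the file headers. Each table was assigned by the deposit's sample record and its treatment label, not by its file name. Libraries of a group differed by more than sampling noise (chi-square per degree of freedom 3.10 and 5.68). The members, the partner lists and the tests were chosen with earlier results of these data known.

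Counts were tested with edgeR 4.0.16 (R 4.3.3; TMM, filterByExpr with minimum count 10 and total 15, quasi-likelihood test on group, Benjamini-Hochberg adjustment over 15161 genes), tested first on simulated counts. TPM and family shares used the deposited lengths. Named genes were the members, HMGB2, genes sharing member exons and, per partner list, up to 3 called genes with the smallest p, or else the tested gene with the highest mean CPM. DGCR8, XPO5, TSN, TUT4, CNOT6, CNOT7, PABPC1, LIMD1, DCP1B, EDC4, DDX6, XRN1, LIN28A, TRIM71 and PIWIL1 were named after their values were seen. Exons on alternative sequences occurred in 1 member and 5 partner genes, among them DCP1B and PIWIL1, and the effect on their counts was not tested. Alternatives used limma 3.58.1 and DESeq2 1.42.0; figures used matplotlib 3.10.9 (Python 3.11.15). Intervals implied by zero counts cover counting error only.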

Additional observations from a re-analysis of the deposited data

How the results depend on the processing

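AGO2, AGO3 and TNRC6B kept their direction and call under all 13 alternatives, and HMGB2 stayed at 3.02 to 3.11 on the log2 scale. The 10 members gave 4 called higher under the 9 alternatives with all libraries and 3 to 6 when 1 library was left out. The count called lower was 1 in place of 2 with no low-count filter, with DESeq2, with the replicate block and in libraries thinned to the smallest total, and 0 to 2 when 1 library was left out. In each of those 4 settings AGO1 was the call lost; the cause was not tested. Leaving out 1 library gave -0.15 to 0.045 for AGO4 and -0.43 to 0.20 for PIWIL4, never called; AGO4 turned without scramble replicate 2 and PIWIL4 without scramble replicate 1. Partner genes called lower were 8 with upper-quartile and with total-count scaling, and with 1 library left out 9 to 22 were higher and 2 to 6 lower. Of all genes, DESeq2 called 1286 lower (2352 had no adjusted p), and leaving out 1 library gave 1481 to 2904 higher and 903 to 2291 lower. The AGO2 share differed by 6.07 to 8.04 points and the TNRC6A share by -2.13 to -0.80 points when 1 library was left out. No label says that a number marks a shared culture or day, so the numbers were not taken as pairs. Same-numbered libraries did not deviate together (r = -0.01 over 15161 genes), which with 2 libraries per group cannot exclude pairing. The replicate block gave 2446 higher and 2011 lower. TNRC6C had the fewest counts of the 10 members, 230 to 339 per library, and kept its call in the thinned libraries (-0.49, adjusted p = 0.00194). With the exon length on chromosome 16 alone, chosen after seeing the data, the mean TNRC6A level was 51.1 TPM in place of 26.7.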
